A study of Homo sapiens with 8 samples.

Results

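Intronic G4 peaks are the G4 ChIP-seq peaks, read in the paper as endogenous G-quadruplexes (G4s), that lie inside genes but away from promoters. They were taken here from the high-confidence G4 ChIP-seq lists of 2 untreated human lines. K562 cells come from a chronic myelogenous leukemia and HepG2 cells from a hepatocellular carcinoma. A peak was counted as intronic when its centre fell inside an annotated transcript, outside every exon, and more than 1 kb from every annotated transcription start site (TSS). Of 9205 K562 peaks, 680 met this rule (7.39%, 95% Wilson confidence interval 6.87 to 7.94), and of 8805 HepG2 peaks, 1364 did (15.5%, 14.8 to 16.3), in all 2044 of 18010. The odds ratio of HepG2 to K562 was 2.30 (95% interval 2.09 to 2.53, two-sided Fisher's exact test, adjusted p = 5.99e-66). Most other peaks, 7849 in K562 and 6492 in HepG2, had their centre within 1 kb of a TSS, and 539 and 788 were intergenic.

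For each line the sample list names 3 G4 ChIP libraries, precipitated with an antibody to folded G4s, and 1 input library made without antibody. The deposited K562 list keeps stretches called in at least 5 of 8 replicates and the HepG2 list those called in at least 6 of 9, so each line is a single merged list with its own threshold, and a difference between the lines and a difference in how the lists were made cannot be told apart. The paper describes 3 independent experiments per line with technical replicates of each, so the replicates counted by these thresholds are not all independent. The lists give positions only. The depth behind a peak is unknown, no spread between replicates could be computed, and the intervals and p-values below describe these lists of peaks, in which peaks of the same gene are not independent. The lists hold no expression values, so the line labels were not checked against marker expression, and differences in chromosome copy number were not analysed.

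A G-quadruplex is a 4-stranded DNA structure in which planar tetrads of guanines stack on each other. On a single strand it can form where 4 runs of G lie close together, and the complementary strand is then rich in C. Within a gene the G-rich strand can be the coding strand, which has the sequence of the RNA, or the template strand, which RNA polymerase reads. Introns are transcribed and then removed from the RNA. The first intron often holds regulatory elements such as enhancers, which are bound by transcription factors of the cell type.

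The following motifs show what the intronic peaks contain. A complete motif has 4 G runs, each of 3 G or more, separated by loops that are 1 to 7 bases long. A loop base may itself be a G, so that a run of 7 G can stand for 2 runs of the motif, as it does in DYNC2I1 below. The first group lies inside overlapping peaks of both lines and was taken from the widest such pairs. Each sequence is written 5′ to 3′ on the strand that carries the G, runs of G are in capitals, and positions are on hg19.
SLC38A8, intron 9, coding strand, chr16:84047606-84047629, minus strand: GGGcGGGGctttcaGGGctgaGGG
ZBTB2, intron 1, coding strand, chr6:151711476-151711496, minus strand: GGGGacaGGGaGGGGGcGGGG
MAMSTR, intron 7, template strand, chr19:49217820-49217839, plus strand: GGGGaGGGGcGGGGcgtGGG
STMN3, intron 4, coding strand, chr20:62273191-62273210, minus strand: GGGcGGGGGcGGGGctaGGG
PEG10, intron 1, template strand, chr7:94287404-94287428, minus strand: GGGcccGGGagaggcaGGGcctGGG

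The second group comes from the widest motif-bearing peaks that had no counterpart in either list of the other line, for each strand and for first and later introns, apart from the template strand of later introns in HepG2, which is not shown. The first 4 are K562-only and the last 3 are HepG2-only.
DYNC2I1, intron 1, coding strand, chr7:158656471-158656489, plus strand: GGGGGcGGGGGGGagcGGG
FSCN1, intron 1, template strand, chr7:5638745-5638768, minus strand: GGGGctGGGtcccaGGGtgccGGG
RYR1, intron 57, coding strand, chr19:38998085-38998109, plus strand: GGGctgagaaGGGcaGGGcccGGGG
PNPLA7, intron 20, template strand, chr9:140386950-140386967, plus strand: GGGGcatGGGcGGGtGGG
LINC01512, intron 1, coding strand, chr6:43894768-43894791, plus strand: GGGaaGGGGGacagaGGGcccGGG
LINC02580, intron 1, template strand, chr2:43421258-43421285, plus strand: GGGtggaGGGtaaaGGGcgatccaGGGG
LINC00511, intron 3, coding strand, chr17:70409769-70409794, minus strand: GGGcagaaGGGagtctGGGactGGGG

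Many intronic peaks held no complete motif but did hold a short word of the kind that transcription factors bind. For 5 words an example is shown with 30 bases, the word in capitals. The peak of the CACCC example also held 2 complete motifs, and the HNF4A and FOXA examples lie in the same peak. The examples were chosen after the values were seen, as the word in the widest line-only peak that holds it within 200 bp around its centre. The GATA and CACCC words are from K562-only peaks and the others from HepG2-only peaks.
GATA word, PITX1-AS1, intron 2, chr5:134469854-134469883, minus strand: cacaggttggcgAGATAAgcactcccacat
CACCC word, LINC01257, intron 3, chr12:131709173-131709202, minus strand: cacccctatctCCACACCCatggcttggcc
HNF4A word, ENSG00000286923, intron 2, chr7:99601656-99601685, plus strand: aacacataacCAAAGTCCAgagccctgtgc
FOXA word, ENSG00000286923, intron 2, chr7:99601525-99601554, plus strand: tctttgtaatgTGTTTACaggaggaggggg
C/EBP word, VAC14, intron 14, chr16:70759459-70759488, minus strand: gtgtcctgggtTTGCATAAgagcccttgtg

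By the intron number of the host transcript, first introns held more G4 peaks than their length would give. In K562, 290 of 680 intronic peaks (42.6%, 39.0 to 46.4) lay in the first intron of the host transcript, and in HepG2 568 of 1364 did (41.6%, 39.1 to 44.3). First introns make up 29.3% of the intron sequence that met the rule and hold 30.4% of its 158671 complete motifs. Per Mb of intron sequence, K562 had 0.66 peaks in first introns and 0.37 in later introns, a ratio of 1.80, and HepG2 had 1.30 and 0.75, a ratio of 1.72. The share in first introns did not differ detectably between the lines (odds ratio 0.960, 0.797 to 1.16, Fisher's exact test, adjusted p = 0.713). The choice of transcript mattered for its level. A peak in the first intron of any transcript was found in 60.1% of cases in K562 and 61.5% in HepG2, and in the first intron of every transcript in 29.1% and 30.6%. The share of intron sequence was not computed for these other definitions, so an excess over length is not known for them. The density ratios were not tested.

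Density fell with distance from a TSS in both kinds of intron. Between 1 and 2 kb, HepG2 had 3.41 peaks per Mb in first introns and 1.64 in later introns, and K562 had 1.86 and 1.10. Between 10 and 50 kb the HepG2 values were 0.732 and 0.577 and the K562 values 0.310 and 0.233. First introns were the denser kind in each band up to 50 kb, by 1.33 to 1.97 times in K562 and by 1.27 to 2.08 times in HepG2. Beyond 50 kb the order was the opposite, on 2 and 3 first-intron peaks.

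**Figure D1:**
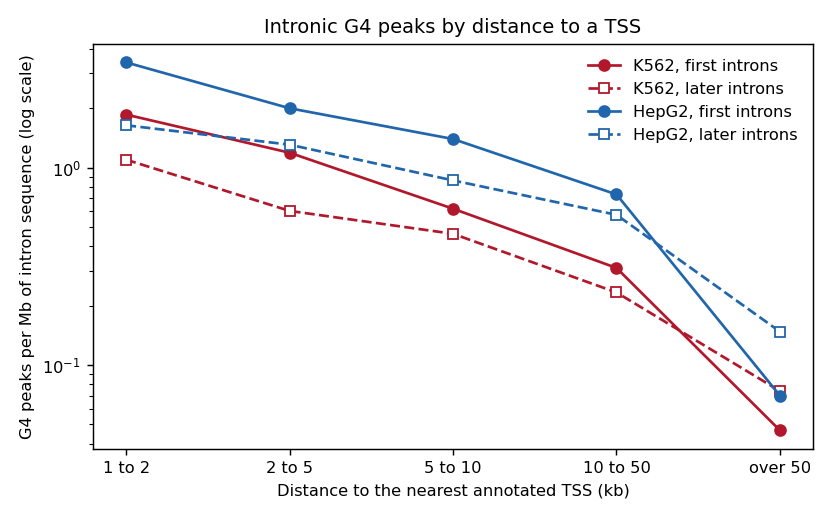
G4 peaks per Mb of intron sequence (y axis, log scale) against distance to the nearest annotated TSS in kb (x axis, 5 bands), for first introns (filled circles) and later introns (open squares) of K562 (red) and HepG2 (blue). Density falls from 3.41 to 0.07 peaks per Mb in HepG2 first introns, and first introns lie above later introns in every band up to 50 kb.

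Intronic peaks were some distance from the promoter of their host. The median distance from the centre to the nearest TSS of any gene was 4614.5 bp in K562 (95% interval of the median 4110 to 5138) and 5489 bp in HepG2 (4941 to 5878), and that to the start of the host transcript was 18318 and 22920 bp. The peaks closest to the limit on the inside were those in TSKS (1004 bp) and PHLDB1 (1007 bp) in K562 and in DAPK3 (1001 bp) and STAT6 (1006 bp) in HepG2. Just outside were HOOK2 (992 bp) and TEX45 (991 bp) in K562 and SEPTIN9 (999 bp) and CASTOR3P (993 bp) in HepG2. Although every centre was outside an exon, the interval itself reached an exon in 67 K562 peaks (9.85%) and in 39 HepG2 peaks (2.86%).

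The peaks were shorter and poorer in GC than those near a TSS. The median width was 163 bp in K562 introns (153 to 174) and 144.5 bp in HepG2 introns (139 to 150), against 202 and 180 bp near a TSS. The narrowest intronic interval was 1 bp in each line. Each listed interval was counted as a peak, also where it lay beside another. Merging intervals within 100 bp left 664 intronic peaks in K562 and 1312 in HepG2. Median GC content was 63.8% and 57.5%, against 71.1% and 67.3% near a TSS and 39.5% in 200 bp windows of intron sequence. The ratio of observed to expected CpG, which is close to 1 where CpG is not depleted, had medians of 0.343 in K562 and 0.235 in HepG2 introns, and 0.867 and 0.821 near a TSS. First and later introns had similar medians in GC content, 63.6% and 64.0% in K562 and 57.4% and 57.5% in HepG2.

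The widest intronic peak of K562 spanned 865 bp in intron 12 of LMTK3, a membrane kinase gene, and held 5 complete motifs on the coding strand. The next was in SLC38A8, an amino acid transporter gene, with 793 bp and 1 motif, and the HepG2 peak at the same place, the second widest of that list, spanned 623 bp and lay wholly inside it. FAAP20, whose product belongs to the Fanconi anaemia DNA repair pathway, had a K562 peak of 725 bp with 12 motifs, all on the coding strand. In HepG2 the widest peak, 759 bp, lay in the first intron of PEG10, an imprinted gene derived from a retrotransposon, and held 2 motifs on the template strand. A peak of 591 bp in the first intron of ST3GAL2, a sialyltransferase gene, overlapped a K562 peak by 492 bp and held no complete motif. Of these 5 genes, ST3GAL2 was the only one without a motif in its peak.

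Complete motifs were less common in intronic peaks than near a TSS. In K562, 157 of 680 intronic peaks (23.1%, 20.1 to 26.4) held a motif, against 32.6% of all K562 peaks and 34.4% of those near a TSS (odds ratio 0.572, 0.475 to 0.687, Fisher's exact test, adjusted p = 1.90e-09). In HepG2, 138 of 1364 (10.1%, 8.63 to 11.8) did, against 20.6% of all HepG2 peaks and 24.4% of those near a TSS (odds ratio 0.349, 0.290 to 0.420, adjusted exact p = 1.37e-34). The HepG2 share was below that of K562 (odds ratio 0.375, 0.292 to 0.482, adjusted exact p = 6.63e-14). In the K562 list the difference from TSS-near peaks did not pass the threshold among peaks of 150 to 250 bp (odds ratio 0.796, adjusted exact p = 0.271). All of these shares were above the 1.82% of 200 bp intron windows with a motif. Those windows had a median GC content of 39.5%, against 63.8% in K562 and 57.5% in HepG2 intronic peaks. No windows of like GC content were counted for the motif, so the part of GC content in this difference was not tested. When runs of at least 2 G were accepted, 80.9% of K562 and 62.8% of HepG2 intronic peaks held a motif.

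First and later introns did not differ detectably in motif share. In K562, 67 of 290 first-intron peaks (23.1%) and 90 of 390 later-intron peaks (23.1%) held a motif (odds ratio 1.00, 0.698 to 1.44, Fisher's exact test, adjusted p = 1). This comparison depended on the annotation in K562, since the odds ratio was 1.61 (adjusted exact p = 0.0469) when the whole interval had to lie outside exons and 0.691 (adjusted exact p = 0.0338) with the basic transcript set. In HepG2, 54 of 568 (9.51%) and 84 of 796 (10.6%) did (odds ratio 0.890, 0.621 to 1.28, adjusted exact p = 0.683). Intergenic peaks held a motif in 22.1% of cases in K562 and 10.8% in HepG2, and neither share differed detectably from that of introns (odds ratios 1.06, 0.808 to 1.39, and 0.931, 0.700 to 1.24, both with an adjusted exact p = 0.680).

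**Figure D2:**
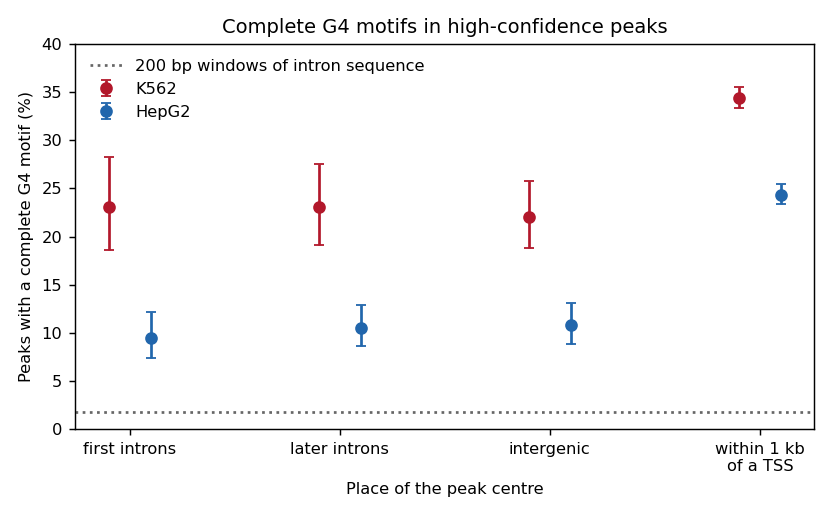
Share of high-confidence peaks with a complete G4 motif in percent (y axis) for peaks centred in first introns, later introns, intergenic sequence or within 1 kb of a TSS (x axis), in K562 (red) and HepG2 (blue), with 95% Wilson intervals. The dotted line is the 1.82% of 200 bp windows of intron sequence that hold a motif, windows not matched to the peaks in GC content. K562 lies above HepG2 in every class.

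In K562 intronic peaks the G-rich strand was more often the coding strand than the template strand, at a share not detectably different from that near a TSS. Strand was counted for peaks whose motifs all lay on 1 strand and whose transcripts all ran in 1 direction. Of 142 such K562 intronic peaks, 91 (64.1%, 55.9 to 71.5) had the motif on the coding strand, against 59.1% of all K562 peaks counted this way (exact binomial test against equal shares, two-sided, adjusted p = 0.00199). The K562 share was 60.0% and did not pass the threshold (adjusted exact p = 0.0897) when peaks reaching an exon were left out. In HepG2, 74 of 130 (56.9%, 48.3 to 65.1) were on the coding strand, against 59.5% of all HepG2 peaks (adjusted exact p = 0.241). The HepG2 share passed the threshold under 4 of 12 alternatives, at 56.6 to 61.9%. The difference between the lines did not pass the threshold either (odds ratio of HepG2 to K562 0.741, 0.455 to 1.21, Fisher's exact test, adjusted p = 0.396). Near a TSS the coding-strand share was 58.7% in K562 and 60.3% in HepG2, and intronic peaks did not differ detectably from it (odds ratios of intronic to TSS-near 1.25, 0.874 to 1.80, Fisher's exact test, adjusted p = 0.396, and 0.868, 0.596 to 1.27, adjusted p = 0.623). Of the 158671 complete motifs in the intron sequence that met the rule, 48.1% were on the coding strand.

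Strand was also counted by intron. In first introns the motif was on the coding strand in 35 of 57 K562 peaks (61.4%) and 25 of 49 HepG2 peaks (51.0%), and in later introns in 56 of 85 (65.9%) and 49 of 81 (60.5%). First against later gave odds ratios of 0.824 (0.410 to 1.65, Fisher's exact test, adjusted p = 0.683) in K562 and 0.680 (0.333 to 1.39, adjusted p = 0.482) in HepG2. Without requiring a motif, the coding strand had more G than C in 385 of 626 K562 intronic peaks (61.5%, 57.6 to 65.2, exact binomial test against equal shares, adjusted p = 4.73e-08) and in 740 of 1232 HepG2 intronic peaks (60.1%, 57.3 to 62.8, adjusted p = 2.49e-11). The same held for 54.5% of 200 bp windows of intron sequence, which is the background for these shares, and the excess over that background was not tested. Base composition thus leaned to the coding strand in both lines, while for complete motifs the test passed the threshold in K562 and not in HepG2.

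**Figure D3:**
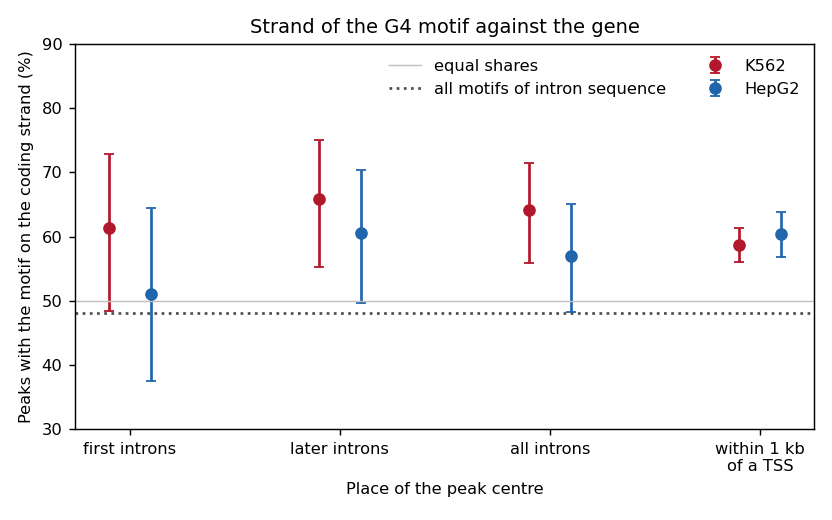
Share of peaks with the G4 motif on the coding strand in percent (y axis, from 30 to 90) for first introns, later introns, all introns and peaks within 1 kb of a TSS (x axis), in K562 (red) and HepG2 (blue), with 95% Wilson intervals. The dotted line is the 48.1% of all motifs of the intron sequence and the solid line marks equal shares, and the interval for all K562 introns, 55.9 to 71.5%, lies above both.

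Intronic peaks were seldom found in the other line. In K562, 126 of 680 (18.5%, 15.8 to 21.6) met a HepG2 high-confidence peak with 1 bp or more, against 51.1% of all K562 peaks and 56.4% near a TSS (odds ratio 0.176, 0.144 to 0.215, Fisher's exact test, adjusted p = 1.09e-83). In HepG2, 126 of 1364 (9.24%, 7.81 to 10.9) overlapped a K562 peak, against 53.7% of all HepG2 peaks and 68.5% near a TSS (odds ratio 0.0468, 0.0387 to 0.0567). A further 120 K562 peaks (17.6%) and 115 HepG2 peaks (8.43%) met only an interval of the other line's lower-confidence list, which asks for 2 replicates. The remaining 434 K562 peaks (63.8%, 60.1 to 67.3, against 24.4% of all K562 peaks) and 1123 HepG2 peaks (82.3%, 80.2 to 84.3, against 32.9%) met no interval of the other line and are called K562-only and HepG2-only below.

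Sharing did not differ detectably between first and later introns, at 20.7% and 16.9% in K562 (odds ratio 1.28, 0.869 to 1.89, Fisher's exact test, adjusted p = 0.337) and 10.4% and 8.42% in HepG2 (odds ratio 1.26, 0.873 to 1.82, adjusted p = 0.337). In HepG2 it was lower than in intergenic peaks, of which 16.8% were shared (odds ratio 0.506, 0.389 to 0.657, adjusted exact p = 1.57e-06). In K562 the intergenic share was 23.4%, and the difference did not pass the threshold after adjustment (odds ratio 0.745, 0.565 to 0.984, adjusted exact p = 0.0734). Shared intronic peaks held a motif more often than line-only ones. The shares were 34.9% against 21.2% in K562 (odds ratio 1.99, 1.29 to 3.07, adjusted exact p = 0.00636) and 27.0% against 7.84% in HepG2 (odds ratio 4.35, 2.77 to 6.81, adjusted exact p = 2.02e-08). Shared intronic peaks were also wider, with a median of 215.5 bp in K562, where K562-only ones had 150 bp, and of 187 bp in HepG2, where HepG2-only ones had 141 bp, and the part of width in the motif share was not tested.

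**Figure D4:**
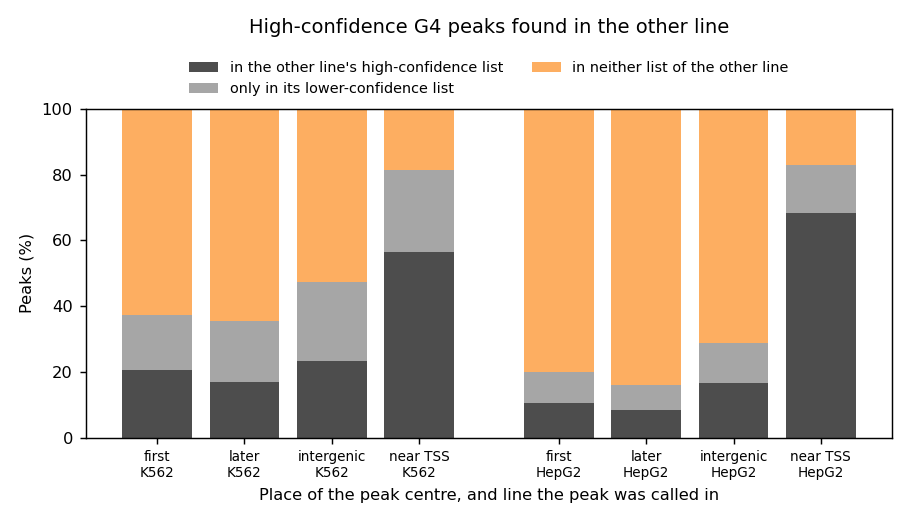
High-confidence peaks in percent (y axis) that overlap the other line's high-confidence list (dark grey), only its lower-confidence list (light grey) or neither (orange), by place of the peak centre and by the line the peak was called in (x axis). The orange part is 62.8 and 64.6% in first and later introns of K562 and 80.1 and 83.9% in those of HepG2, against 18.5 and 16.9% near a TSS.

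The 680 K562 peaks lay in 547 host genes and the 1364 HepG2 peaks in 1028, and 181 genes hosted peaks in both lines (33.1% of the K562 hosts and 17.6% of the HepG2 hosts). In 119 of these 181 genes a peak of one line overlapped a high-confidence peak of the other, and in 62 none did. Most hosts had a single intronic peak, 456 in K562 and 810 in HepG2, while 24 and 66 hosts had 3 or more. Protein-coding genes hosted 594 K562 peaks (87.4%) and 1171 HepG2 peaks (85.9%), and most of the rest were in genes of long noncoding RNAs, 80 (11.8%) and 185 (13.6%). In K562, 359 of the 594 peaks with a protein-coding host (60.4%, 56.5 to 64.3) lay in a gene that also had a G4 peak at its own TSS, against 538 of 1171 (45.9%, 43.1 to 48.8) in HepG2 (odds ratio of HepG2 to K562 0.556, 0.455 to 0.680, Fisher's exact test, adjusted p = 2.01e-08). With the lower-confidence lists this difference did not pass the threshold (odds ratio 0.95, adjusted exact p = 0.447). In K562 the motif share was 20.3% in hosts with such a TSS peak and 29.4% in those without (odds ratio 0.614, 0.420 to 0.898, adjusted exact p = 0.0346). In HepG2 the values were 10.4% and 9.16% (odds ratio 1.15, 0.782 to 1.70, adjusted exact p = 0.623).

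GSE1, which encodes a subunit of a chromatin repressor complex, hosted the most peaks in K562, 14, and 12 in HepG2, with 2 places where peaks of the lines overlapped. These peaks were spread over introns 1 and 2 of the transcripts used, with widths of 28 to 431 bp in K562 and 24 to 434 bp in HepG2, and only 1 and 2 of them held a complete motif. PIEZO1, the gene of a mechanically gated ion channel, had 5 peaks in K562 and 3 in HepG2, all in its first intron, and the K562 peak of 574 bp enclosed the HepG2 peak of 313 bp. ZMIZ1, a transcriptional coactivator gene, had 4 peaks in each line, none of which overlapped. In ERCC1, whose product cuts DNA in nucleotide excision repair, 3 of the 4 K562 peaks overlapped the 3 HepG2 peaks, all in the first intron of the transcript used, and 3 and 1 of them held a motif. These 4 hosts thus ranged from no overlapping peak to all HepG2 peaks overlapping.

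Other hosts were mostly occupied in 1 line. BCR, the gene that is fused to ABL1 in chronic myelogenous leukemia, had 4 K562 peaks of 108, 150, 182 and 246 bp, of which 3 lay in its first intron. Its single HepG2 peak, 268 bp, was also in the first intron and overlapped none of them. TTC34 had 12 HepG2 peaks and no K562 peak. All 12 lay in intron 6, between positions 2583673 and 2629295 of chromosome 1, were 63 to 304 bp wide with a GC content of 58.9 to 66.3%, and held no complete motif, and 10 were HepG2-only. NOL4L had 7 HepG2 and 3 K562 peaks, HS1BP3 had 6 and 1, and SLC7A5, an amino acid transporter gene, had 6 and 1. The 1 K562 peak in HS1BP3 lay inside a HepG2 peak, whereas NOL4L and SLC7A5 had no overlap between the lines.

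Gene lists of cell identity were read as counts beside all protein-coding genes with intron sequence that met the rule, of which 2.69% hosted an intronic peak in K562 and 4.93% in HepG2. Of 23 transcription factor genes of the liver, 7 hosted 14 peaks in HepG2 and 1 hosted 1 peak in K562, which is 14.8 peaks per Mb in HepG2 against 1.08 over all coding genes, and 1.06 against 0.548 in K562. RXRA, the shared partner of many nuclear receptors, had 4 HepG2 peaks of 86 to 231 bp and 1 K562 peak of 278 bp, with no overlap. HNF4A, a nuclear receptor of hepatocytes, had HepG2 peaks of 201 bp in intron 1 and 334 bp in intron 3, the second with a motif on the coding strand. GATA4, a zinc finger factor, had HepG2 intervals of 11 and 67 bp next to each other in intron 2. MLXIPL, a glucose-responsive factor of lipid synthesis, had HepG2 peaks of 172 and 480 bp, the wider one with a motif on the template strand. NR1I2, a receptor for foreign compounds, and SREBF1, a regulator of sterol and fatty acid synthesis, had 1 HepG2 peak each, of 272 and 316 bp. None of the genes named here had overlapping intronic peaks of the lines.

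Of 30 blood transcription factor genes, 6 (20%) hosted 11 peaks in K562 and 3 (10%) hosted 6 in HepG2. Over all coding genes these shares were 2.69% and 4.93%. The blood factor density was 2.84 and 1.55 peaks per Mb, against 0.548 and 1.08 over all coding genes. GFI1B, a repressor needed for red cell and platelet formation, had 3 K562 peaks of 57, 86 and 115 bp in its first intron and none in HepG2. The intervals of 57 and 86 bp lay next to each other. ZFPM1, the cofactor of GATA1, had 3 K562 peaks without a motif, of 365, 9 and 220 bp. Its 2 HepG2 peaks each held a motif on the coding strand, and the lines did not overlap. KLF1, the erythroid factor that binds CACCC sequences, had 1 K562 peak of 363 bp with a motif on the coding strand. CBFA2T3, a corepressor gene, had 1 K562 peak, and RUNX1 had 1 in each line without overlap. ZBTB7A, a repressor of fetal globin, had 2 K562 peaks, both overlapping the HepG2 peak of 163 bp, and 3 HepG2 peaks in all. These K562 intervals, of 76 and 12 bp, lay next to each other. Such neighbouring intervals are counted separately in the 11 K562 peaks and their density.

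Genes that carry out the work of the tissue were counted in the same way. Of 50 liver genes, 5 had 7 HepG2 peaks and 3 had 3 K562 peaks, or 3.99 and 1.71 peaks per Mb against 1.08 and 0.548 over all coding genes. C3, the central complement protein gene, had overlapping peaks of 403 bp in HepG2 and 335 bp in K562, each with a motif on the template strand. ASS1, of the urea cycle, had 2 HepG2 peaks, and FBP1 and ITIH4 had 1 each. TF, the transferrin gene, and ABCB11, the bile salt pump gene, had 1 peak each in K562 and none in HepG2. Of 36 erythroid genes, 2 (5.56%) had 3 K562 peaks (1.98 per Mb) and none had a HepG2 peak. Over all coding genes, 2.69% hosted a K562 peak and 4.93% a HepG2 peak. SLC4A1, the gene of the red cell anion exchanger, had 1 peak of 182 bp in intron 1, and 2 peaks lay in a long annotated transcript of the fetal globin gene HBG2, 217335 and 224826 bp from its start. Of 34 genes around BCR-ABL1 signalling, 2 (5.88%) hosted K562 peaks (BCR, and PIK3R2 with 1). In HepG2, 6 (17.6%) hosted peaks, 1 each in BCR, ABL1, GRB2, GAB1, PIK3R2 and BCL2L1. This gave 2.01 and 2.41 peaks per Mb, against 0.548 and 1.08 over all coding genes. Of 39 neuronal genes, which have long introns, 2 hosted peaks in each line: NRXN2 and STX1A in K562, and DLG2 and SYN3 in HepG2. Their density was 0.0851 peaks per Mb in K562 and 0.128 in HepG2, against 0.548 and 1.08 over all coding genes. The share of neuronal genes that hosted a peak was not below that of all coding genes. It was 5.13% in each line, against 2.69% in K562 and 4.93% in HepG2.

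Short words of transcription factors differed between K562-only and HepG2-only intronic peaks. The 12 words were searched on both strands in the 200 bp around each centre, which gives every peak the same length, and were chosen after the lists had been seen. The GATA word, AGATAA, is read by GATA1 in red cell precursors and by GATA4 and GATA6 in liver-derived cells. It was found in 106 of 434 K562-only intronic peaks (24.4%, 20.6 to 28.7) and in 109 of 1123 HepG2-only ones (9.71%, 8.11 to 11.6), against 4.02% of all K562 and 3.68% of all HepG2 peaks (odds ratio 3.01, 2.24 to 4.04, Fisher's exact test, adjusted over 60 word tests p = 5.52e-12). It occurred in 14.9% of all 200 bp intron windows, whose median GC content was 39.5%, and in 2.32% of those with a GC content from 57 to 66.5%, the middle range of the K562-only peaks. In windows of 52 to 60% GC, the middle range of the HepG2-only peaks, it occurred in 3.73%. The word was rarer in K562-only peaks near a TSS (5.11%, odds ratio of intronic to TSS-near 6.00, 4.36 to 8.27, adjusted exact p = 8.50e-27) and in K562 intronic peaks shared with HepG2 (3.97%, odds ratio of K562-only to shared 7.82, 3.11 to 19.6, adjusted exact p = 1.44e-07). HepG2-only intronic peaks also held it more often than HepG2-only peaks near a TSS (4.19%, odds ratio 2.46, 1.73 to 3.51, adjusted exact p = 1.53e-06), and the difference from shared HepG2 intronic peaks (4.76%) did not pass the threshold (odds ratio 2.15, 0.925 to 5.00, adjusted exact p = 0.111). These comparison groups were richer in GC. Median GC content was 62.4% in K562-only and 66.6% in shared K562 intronic peaks, and 71.1% in all K562 peaks near a TSS. In HepG2 the medians were 56.4%, 66.6% and 67.3% in the same order. The part of GC content in these odds ratios was not tested. Among K562-only intronic peaks the GATA word was present in 23.1% in first and 25.4% in later introns, and in 13.0% of those with a complete G4 motif and 27.5% of those without.

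The words of liver factors had the opposite order. HNF4A is a nuclear receptor whose word is CAAAGTCCA. It was found in 47 of 1123 HepG2-only intronic peaks (4.19%, 3.16 to 5.52) and in 0 of 434 K562-only ones, which allows a share of up to 0.691% when 3 counts are taken as the limit of a count of 0 and up to 0.877% by the Wilson interval, against 1.25% of all HepG2 and 0.0760% of all K562 peaks (Fisher's exact test, adjusted p = 1.77e-06). In intron windows of like GC content its share was 0.194% for the HepG2 range and 0.247% for the K562 range. HepG2-only peaks near a TSS held the word in 2.73% of cases, and the difference from HepG2-only intronic peaks did not pass the threshold (odds ratio of intronic to TSS-near 1.56, 0.977 to 2.48, adjusted exact p = 0.101). FOXA factors open liver enhancers, and their word, TGTTTAC, was in 8.64% of HepG2-only and 2.53% of K562-only intronic peaks, against 3.24% and 1.13% of all peaks of these lines and 1.36% and 1.52% of windows of like GC (odds ratio of K562-only to HepG2-only 0.275, 0.146 to 0.518, adjusted exact p = 2.64e-05). The C/EBP word, TTGCNNAA, was in 11.8% and 5.99%, against 5.49% and 2.64% of all peaks and 4.56% and 3.35% of windows (odds ratio 0.474, 0.307 to 0.733, adjusted exact p = 0.00146).

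The SP and CACCC words, which are rich in G or C, were more common in K562-only intronic peaks. GGGCGG, read by SP factors, contains a run of G and so overlaps the G4 motif in letters. It was found in 37.8% of K562-only and 13.6% of HepG2-only intronic peaks, against 74.5% and 57.0% of all peaks of these lines and 14.2% and 8.56% of windows of like GC (odds ratio 3.85, 2.97 to 4.99, Fisher's exact test, adjusted p = 3.36e-23). CCACACCC, the CACCC word read by KLF1 and its relatives, was in 8.76% and 3.29%, against 3.61% and 2.76% of all peaks and 4.28% and 5.32% of windows (odds ratio 2.82, 1.77 to 4.49, adjusted exact p = 7.19e-05). Of the 37 HepG2-only peaks with it, 9 lay in intron 6 of TTC34, where 11 of the 12 peaks held the word, and with 1 peak per host gene the odds ratio was 4.15 (adjusted exact p = 1.18e-05). The AP-1 word, TGANTCA, was in 18.2% and 13.4%, against 5.37% and 6.19% of all peaks and 3.67% and 4.29% of windows (odds ratio 1.43, 1.06 to 1.93, adjusted exact p = 0.0378). This AP-1 difference did not pass the threshold under 4 of 9 alternatives (adjusted p from 0.0592 to 0.268). The E-box CAGATG did not differ detectably, at 14.1% and 16.3%, against 5.49% and 7.80% of all peaks and 16.6% and 14.05% of windows of like GC (odds ratio 0.840, 0.614 to 1.15, adjusted exact p = 0.390).

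The CTCF word differed between shared and line-only intronic peaks and not detectably between the lines. CTCF organises chromatin loops in all cell types. It was in 3.85% of all K562 peaks, in 10.3% of shared and in 3.69% of K562-only intronic peaks (odds ratio of line-only to shared 0.333, 0.155 to 0.712, Fisher's exact test, adjusted p = 0.0125) and in 2.98%, 8.73% and 2.14% of the matching HepG2 peaks (odds ratio 0.228, 0.109 to 0.478, adjusted p = 0.00114), while K562-only and HepG2-only peaks did not differ detectably (odds ratio 1.75, 0.922 to 3.33, adjusted p = 0.152). In windows of like GC content the CTCF word was at 2.04% for the K562-only range and 1.07% for the HepG2-only range. Shared intronic peaks were richer in GC, with a median of 66.6% in each line, against 62.4% in K562-only and 56.4% in HepG2-only ones. The part of GC content was not tested. Shared peaks of the lines are overlapping places, so these comparisons are not independent. ETS, NRF1 and CRE words, which are typical of promoters, were present in at most 1 line-only intronic peak of each line. Over all peaks their shares were 4.54%, 2.11% and 2.89% in K562 and 4.63%, 1.77% and 2.24% in HepG2. Over the gene list members and the hosts with the most peaks, the GATA word was found near 11 of 57 K562 peaks (19.3%) and 10 of 89 HepG2 peaks (11.2%). It was in 24.4% of all K562-only and 9.71% of all HepG2-only intronic peaks, and in 3.97% and 4.76% of shared ones. The named peaks include line-only peaks and peaks that met an interval of the other line, so neither set is a like comparison. GSE1 had the GATA word at 5 of 14 K562 peaks and 3 of 12 HepG2 peaks. GFI1B had it at 1 of 3 K562 peaks, and ZFPM1 at none of 3 K562 peaks and 1 of 2 HepG2 peaks. It was also near the K562 peak of SLC4A1 and near HepG2 peaks of MLXIPL and NR1I2. The HNF4A word was near 4 of these 89 HepG2 peaks (4.49%), in RXRA, SREBF1, ZFPM1 and PIK3R2, and near 0 of the 57 K562 peaks. It was in 4.19% of all HepG2-only and in 0 of 126 shared HepG2 intronic peaks. The upstream HepG2 peak of the HNF4A gene, in its intron 1, held a FOXA word and an AP-1 word. A word is a match of letters and does not show that the factor was bound.

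**Figure D5:**
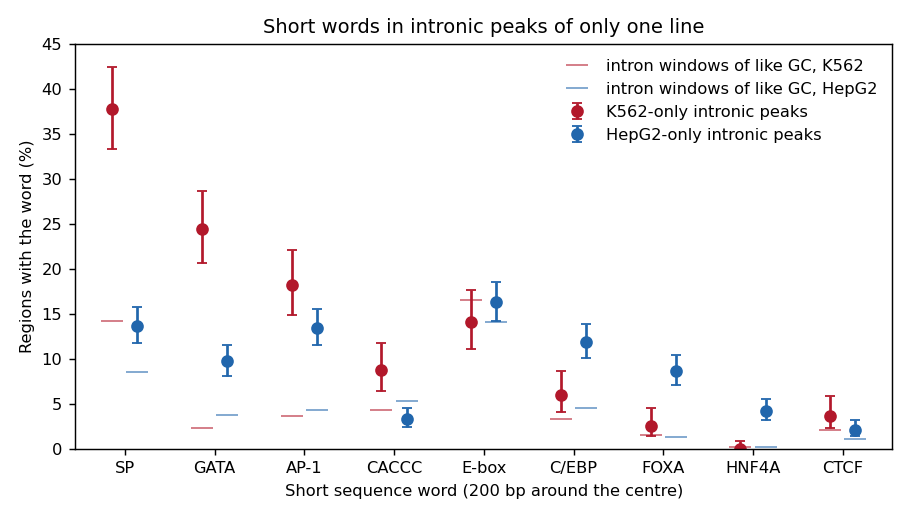
Share of line-only intronic peaks with each short word in the 200 bp around the centre in percent (y axis), for 9 words (x axis), in K562-only (red) and HepG2-only peaks (blue), with 95% Wilson intervals. Short bars give the share in intron windows of like GC content, and the GATA word is at 24.4% against 9.71%, whereas the HNF4A, FOXA and C/EBP words are higher in HepG2-only peaks.

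Intronic peaks were unevenly spread over chromosomes. Chromosome 19 had the highest density in both lines, with 4.21 peaks per Mb of intron sequence in K562 (111 peaks) and 4.02 in HepG2 (106 peaks). HepG2 also had dense introns on chromosomes 17 (3.33 per Mb), 16 (3.27), 22 (3.10) and 20 (2.87), where K562 had 0.796, 1.13, 1.47 and 0.776. The count of HepG2 peaks was 4.76 times that of K562 on chromosome 2, 4.40 times on chromosome 14 and 4.18 times on chromosome 17, but 1.00 times on chromosome 5 and 0.955 times on chromosome 19. K562 had no intronic peak on chromosome 13, where HepG2 had 18, and HepG2 had none on chromosome X, where K562 had 6. The part of copy number in these ratios was not tested.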

How the data were processed

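G4 ChIP-seq was made by the authors from cross-linked chromatin of K562 and HepG2 cells. They treated the chromatin with RNase A and precipitated it with the antibody BG4. Reads went through cutadapt and BWA (hg19), duplicates were taken out with Picard and samtools, MACS2 called the peaks of each replicate (q-value limit 0.05), and bedtools combined the replicates. The 4 deposited lists hold interval positions in bp and no counts, heights or q-values, so depth and precision per sample are unknown. The submitters' processing notes name hg19. Input libraries have no list of their own and were not used here.

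Intervals were placed on GENCODE release 44 lifted to GRCh37, which is newer than the release used in the paper. The host transcript was a protein-coding one where possible, MANE Select before Ensembl canonical before the longest, and gave the intron number. Motifs and words were read from the reference sequence. Shares have 95% Wilson intervals, medians order-statistic intervals, and odds ratios have normal-approximation intervals of their logarithm. Tests were two-sided Fisher's exact tests and exact binomial tests, with Benjamini-Hochberg adjustment within 16 planned tests, 15 added tests and 60 word tests. Peaks of a list are not biological replicates. The regions, hosts and gene lists were chosen with earlier results of these data known. Named regions were the 3 widest intronic peaks per line, the 5 hosts with the most peaks per line (ties broken by the summed length of the peaks), the widest overlapping and line-only motif peaks, list members with a peak, and the peaks next to the 1 kb limit. The added tests, the words and their examples were chosen after the lists had been seen. No sequence from chromosome 8 was printed, and 2 list members and 1 motif sequence are not reported here. The functions were tested on simulated data. Alternatives were minimum width, list, TSS distance, transcript set, exon overlap, 1 peak per host, merging, motif definition, first-intron definition, overlap definition, and leaving out chromosome 19. Python 3.11.15, numpy 2.4.6, pandas 2.3.3, scipy 1.17.1, matplotlib 3.10.9, pysam 0.24.0 and samtools 1.23.1 served for all steps.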

Additional observations from a re-analysis of the deposited data

Results flagged for a closer look

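Some contrasts of intronic peaks differed between K562 and HepG2, when the odds ratio of K562 was divided by that of HepG2. The 95% intervals are normal approximations for the logarithm, treat the lines as independent and are not adjusted for the 11 contrasts compared in this way. Shared peaks are overlapping places counted from each line, so contrasts that use them are not independent between the lines. The motif share of intronic against TSS-near peaks was lower in both lines and less so in K562, with a ratio of odds ratios of 1.64 (1.26 to 2.12). The share of peaks found in the other line, intronic against TSS-near, was reduced in both lines and less so in K562, with a ratio of 3.76 (2.85 to 4.95). The same share against intergenic peaks gave a ratio of 1.47 (1.01 to 2.16). The counts of shared peaks were nearly equal in K562 and HepG2. They were 126 and 126 in introns, 4426 and 4446 near a TSS, and 126 and 132 in intergenic sequence. Both ratios thus mainly reflect the peaks that were not shared. The gain in motif share from line-only to shared intronic peaks was smaller in K562 than in HepG2, with a ratio of 0.459 (0.246 to 0.856). The motif share of intronic peaks by the presence of a G4 peak at the host's TSS had odds ratios of 0.614 in K562 and 1.15 in HepG2, a ratio of 0.533 (0.310 to 0.917). The lists differ in replicate number and threshold, and the part of this in the ratios was not tested.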

How the results depend on the processing

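Of 287 values recomputed for 25 results under the alternatives, 245 kept their direction and their side of the threshold, or for counts stayed within 1.5 times. No paired analysis was possible because each list merges the replicates of a line and the letters in the sample names are not carried by any interval. Replicates could not be left out for the same reason. The intronic share, the sharing against TSS-near peaks, the motif share of HepG2 against TSS-near peaks and that of HepG2 against K562 kept their calls in all alternatives run, as did the GATA, FOXA, HNF4A and SP words. With the lower-confidence lists there were 3028 intronic peaks in K562 and 7510 in HepG2, and beyond 5 kb from a TSS 321 and 714.

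The K562 motif share against TSS-near peaks lost its call among peaks of 150 to 250 bp (odds ratio 0.796). The coding-strand share of K562 lost it without peaks reaching an exon (60.0%), and that of HepG2 passed the threshold in the lower-confidence lists (56.6%, adjusted exact p = 0.00386), beyond 2 kb (61.9%, 0.0444), with loops of 1 to 12 bases (58.9%, 0.0242) and with runs of at least 2 G (57.9%, 0.000500). Its adjusted p over all alternatives ranged from 0.000500 to 0.590. Sharing in first against later introns passed the threshold in the lower-confidence lists (odds ratios 1.20 in K562, adjusted exact p = 0.0496, and 1.25 in HepG2, 0.00885), and that of HepG2 was 0.764 among peaks of 150 to 250 bp. The TSS peak at the host gene lost its call in the lower-confidence lists (0.95).

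First against later introns gave odds ratios for the motif share on either side of 1. In K562 they were 0.9998 without intervals under 50 bp, 0.940 beyond 2 kb, 0.691 with basic transcripts, 1.61 with the whole interval outside exons, 0.935 with 1 peak per host, 0.997 after merging, 0.840 with longer loops, 0.777 with runs of 2 G and 0.678 with the first intron of any transcript. In HepG2 they were 1.01 in the lower-confidence lists, 1.09 beyond 5 kb, 1.01 with 1 peak per host, 1.14 with runs of 2 G and 1.06 in intervals extended by 50 bp. For the coding strand they were 1.08 (K562) and 1.14 (HepG2) in the lower-confidence lists, and in K562 1.07 with the whole interval outside exons and 1.31 without chromosome 19. The first-intron share of HepG2 against K562 was 1.05 beyond 5 kb, 1.15 with basic transcripts, 1.06 with the first intron of any transcript and 1.07 with that of every transcript. Of these direction changes, the K562 motif share with basic transcripts passed the threshold. Leaving out chromosome 19, and the alternatives for the words, were chosen after seeing the data. The AP-1 word lost its call in 4 alternatives, and the C/EBP and CACCC words beyond 5 kb (odds ratios 0.513 and 1.78). The cause of these shifts was not tested. Depth per peak is unknown, so no limit from depth can be given.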
